A study of Mus musculus with 3 samples.

Results

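The genes of the tumour necrosis factor (TNF) superfamily are described here as they were expressed in naive CD4 T cells of the mouse. They were the protein-coding genes of the GENCODE M21 annotation whose symbol began with Tnfrsf or Tnfsf, together with Cd27, Cd40, Cd40lg, Cd70, Fas, Fasl, Ltbr, Lta, Ltb and Tnf. This gave 42 genes, 24 receptors and 18 ligands, of 22028 protein-coding genes and 55536 annotated genes in all. The cells were primary naive αβ T cells of the CD4 lineage from 1 male adult mouse aged 5 months, of the strain B6.SJL-Ptprca Pepcb/BoyJ, which carries the CD45.1 allele of Ptprc on a C57BL/6 background. No treatment was labelled and there was no second group. PolyA RNA from this 1 animal was sequenced as 3 technical libraries, so every SD and p-value below measures technical spread and not variation between mice.

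Ligands of this superfamily form trimers that sit on the cell surface or are cut from it, and they cluster their receptors to signal. Receptors with a death domain can recruit adaptors that activate caspases, and receptors without one recruit TRAF proteins that activate NF-κB and kinase cascades. On CD4 T cells the family is best known for costimulation through receptors such as CD27, OX40 and GITR, for help to B cells through CD40 ligand, and for the removal of activated cells through Fas.

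The lines below show where annotated transcripts of 5 of the more abundant members part from each other, since their shares are given further on. Each line holds 24 bases, read from the GENCODE M21 transcripts on the mm10 build, with the last 12 bases of a shared exon in lower case and the next 12 bases of that transcript in capitals. In Tnfrsf18-203 and Cd27-206 the transcript is not spliced at this base and runs on.

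Ltb-201: cagggacgtcggGTTGAGAAGATC
Ltb-203: cagggacgtcggCCTCTCAGAGAC
Tnfrsf18-202: tgtgtcctcgagAGACCCAGCCAT
Tnfrsf18-203: tgtgtcctcgagGTCAGTTGTGTC
Cd27-201: attgtaactctgGTTTTCTTATCC
Cd27-206: attgtaactctgGTGAGAGGGGCA
Fas-201: catgccaacctgGTAAAAAAAAAG
Fas-202: catgccaacctgAAAACTAGGCTG
Fas-204: catgccaacctgGTCTCTCAGCTA
Tnfrsf25-201: ctccaaccccccGGCCCTGCCTGC
Tnfrsf25-202: ctccaaccccccTGTTTTGGGTCC

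The libraries held 14800852, 18170786 and 17448768 expected counts over annotated genes for libraries 1, 2 and 3. The label of the cells was checked against marker genes. All 9 T cell markers and all 7 naive T cell markers were present at 1 TPM or more in every library (TPM is a gene's share of all transcripts, corrected for gene length and scaled to the same total in each library), with medians of 761 and 1085 TPM, led by Trac at 2475 TPM and Ccr7 at 2632 TPM. Markers of other cells were low: 1 of 10 B cell, 1 of 6 NK cell, 2 of 9 myeloid, 0 of 6 dendritic cell and 1 of 8 stromal, epithelial and endothelial markers reached that level. The highest of each of these lists were Cd79a at 2.06, Eomes at 2.49, Itgam at 1.63, Zbtb46 at 0.333 and Epcam at 3.30 TPM. Of the plasma cell list 2 of 5 were detected: Xbp1 and Irf4, which T cells also express, reached 229 and 8.30 TPM, while Sdc1 stood at 0.177 TPM. Of the 2 CD8 T cell markers, Cd8b1 stood at 17.0 TPM and Cd8a at 0.140 TPM. In bulk RNA, fewer cells of a type and less RNA per cell cannot be told apart.

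A gene was called detected when it had at least 1 TPM in every library. By this rule 24 of the 42 members were detected (57.1%), against a background of 44.6% of all protein-coding genes. Among the receptors 15 of 24 were detected (62.5%), and among the ligands 9 of 18. At least 10 TPM in every library was reached by 19 members, against a background of 33.1% of protein-coding genes. The 5 genes Ltb, Cd27, Tnfrsf18, Cd40lg and Tnfrsf1b, reached 100 TPM in every library, against a background of 7.59%. There was a gap between the groups: the lowest detected member, Tnfsf9, had a mean of 2.64 TPM and the highest undetected one, Tnfrsf19, had 0.567 TPM. The detected members had a median of 25.1 TPM, and all detected protein-coding genes 31.4 TPM. Together the 42 members made up 0.237, 0.203 and 0.240% of all TPM in libraries 1, 2 and 3.

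**Figure D1:**
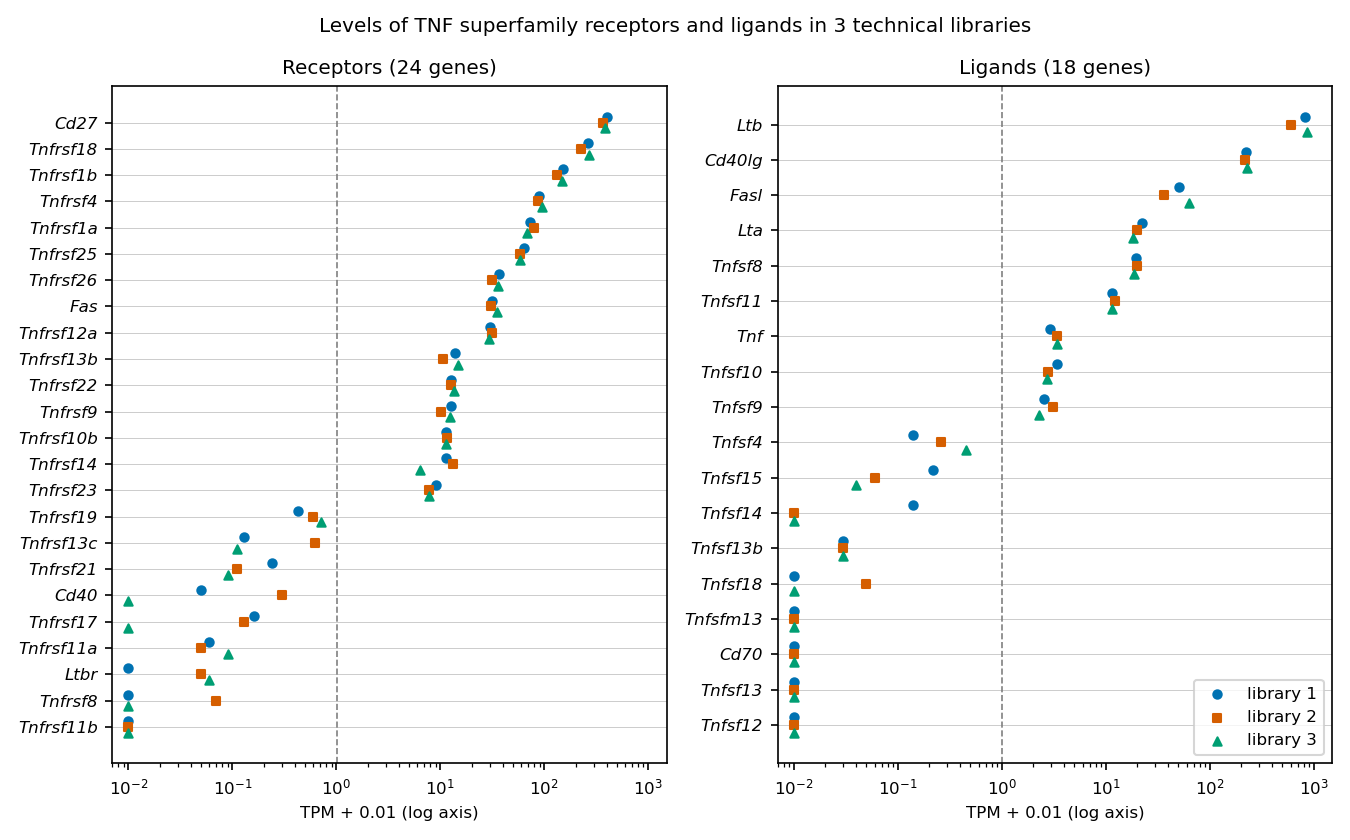
Level of each of the 24 receptors and 18 ligands in the 3 technical libraries, as TPM + 0.01 on a log axis, sorted by mean level, with a dashed line at the detection level of 1 TPM. The 15 detected receptors and 9 detected ligands lie right of the line, and no member has a mean between 0.567 and 2.64 TPM.

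Receptors that costimulate T cells by binding TRAF proteins were the most abundant receptor group, and 6 of 7 were detected. Cd27, a costimulatory receptor of naive T cells (ENSMUSG00000030336.14, chromosome 6, 125232622 to 125237010, minus strand, mm10), had 398, 366 and 385 TPM in libraries 1, 2 and 3, and ranked 341 among protein-coding genes. Tnfrsf18, which encodes GITR, had 265, 224 and 266 TPM, lowest in library 2. Tnfrsf1b, the TNF receptor without a death domain, had 151, 131 and 147 TPM, again lowest in library 2. These 3 receptors did not overlap with each other in any library. Tnfrsf4, which encodes OX40, had 89.0, 87.3 and 96.1 TPM, below every value of Tnfrsf1b. Tnfrsf9, which encodes 4-1BB, was lower at 12.6, 10.3 and 12.3 TPM. Tnfrsf14, which encodes the herpesvirus entry mediator, had 11.4, 13.3 and 6.36 TPM, with library 3 well below the others. The last of this group, Tnfrsf8 (CD30), had 0, 2 and 0 counts.

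Tnfrsf18, Tnfrsf4 and Tnfrsf9 are also known as genes of regulatory T cells, so the markers of those cells are given beside them. All 8 regulatory T cell markers were detected, at a median of 8.92 TPM, and their summed level was 129, 130 and 127 TPM in libraries 1, 2 and 3. Foxp3, the defining factor, stood at 18.4, 20.9 and 17.4 TPM, Ctla4 at a mean of 54.1 TPM, Lrrc32 at 21.5 TPM and Ikzf2 at 10.6 TPM. The part of regulatory T cells in the levels of the 3 receptors was not tested. Of 10 genes of activated or effector T cells 4 were detected, Cd69 at 146, Il2rb at 36.8, Cd44 at 19.0 and Prdm1 at 4.79 TPM, and their part was not tested either.

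Of the receptors with a death domain, 4 of 5 were detected. Tnfrsf1a, the TNF receptor with a death domain, had 72.5, 80.4 and 68.6 TPM, highest in library 2. Tnfrsf25, which encodes death receptor 3, had 64.3, 58.4 and 58.9 TPM, and did not overlap with Tnfrsf1a. Fas had 31.1, 30.6 and 34.9 TPM, close to the 2 genes next in order, Tnfrsf26 and Tnfrsf12a, whose ranges overlapped with its own. Tnfrsf10b, the mouse receptor of TRAIL, had 11.5, 11.5 and 11.4 TPM, the smallest SD relative to the mean among the TPM values of detected members. Tnfrsf21, death receptor 6, had 7, 4 and 3 counts.

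Tnfrsf22, Tnfrsf23 and Tnfrsf26 lie side by side on chromosome 7, and the first pair are known as decoy receptors for TRAIL. All 3 were detected, while Tnfrsf11b, the soluble decoy osteoprotegerin, had 0 counts in every library. Tnfrsf26 had 36.5, 31.3 and 36.2 TPM. Tnfrsf22 had 12.6, 12.8 and 13.5 TPM, and Tnfrsf23 had 9.12, 7.69 and 7.81 TPM. Tnfrsf22 and Tnfrsf23 are close copies of each other, and all 3 genes overlap the antisense gene E230032D23Rik at 8.92 TPM, so their split of reads is uncertain.

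Of 4 receptors known from B cells and antigen-presenting cells, 1 was detected. This was Tnfrsf13b, which encodes TACI, with 13.9, 10.7 and 14.8 TPM and 940 counts in all. Cd40 had 1, 4 and 0 counts, Tnfrsf13c (the BAFF receptor) 2, 13 and 2, and Tnfrsf17 (BCMA) 1, 1 and 0. The B cell markers summed to 2.45, 3.75 and 3.39 TPM in libraries 1, 2 and 3, led by Cd79a with 89 counts in all. Their part in the level of Tnfrsf13b was not tested. Of the receptors known from stroma, bone and other tissues, Tnfrsf12a, the receptor of TWEAK, was detected at 30.3, 31.2 and 29.1 TPM. The other members of that group were below the detection level: Tnfrsf19 had 10, 16 and 15 counts (0.42, 0.58 and 0.70 TPM), Tnfrsf11a (RANK) 2, 2 and 4, and Ltbr 0, 1 and 1.

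Among the ligands, Ltb stood far above the rest. Ltb, the membrane-bound lymphotoxin chain (ENSMUSG00000024399.5, chromosome 17, 35194439 to 35196320, plus strand, mm10), had 823, 606 and 858 TPM and ranked 156 among protein-coding genes. Library 2 was the low one, yet its Ltb level still exceeded every value of Cd27, the next member. Lta, its partner in the lymphotoxin heterotrimer, had 22.3, 19.8 and 18.3 TPM. Tnf had 2.93, 3.38 and 3.39 TPM from 155 counts in all. Tnfsf14, which encodes LIGHT, had 2 counts in library 1 and 0 in the others.

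Cd40lg, the ligand through which CD4 T cells help B cells, was the other abundant ligand, with 223, 216 and 230 TPM. Its range overlapped with that of Tnfrsf18 and with no other member. Tnfsf8, the CD30 ligand, had 19.6, 20.0 and 18.7 TPM, overlapping with Lta. Tnfsf9, the 4-1BB ligand, had 2.53, 3.11 and 2.29 TPM. The remaining costimulatory ligands are made mainly by antigen-presenting cells and were not detected. Tnfsf4 (OX40 ligand) had 2, 5 and 8 counts, Tnfsf15 had 6, 2 and 1, Tnfsf18 (GITR ligand) had 0, 1 and 0, and Cd70 had 0 in every library.

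Both ligands known for inducing death were detected. Fasl had 50.9, 36.1 and 63.1 TPM, and its library 3 value was 1.40 times that of library 2 after scaling of the counts. The TPM values spread more widely than these counts. Fasl-202, a transcript of 406 bases with 58 counts in all, was given 6.81, 2.67 and 18.9% of Fasl TPM in libraries 1, 2 and 3. Its part in the spread was not tested. Tnfsf10, which encodes TRAIL, had 3.39, 2.78 and 2.70 TPM, a range that overlapped with those of Tnf and Tnfsf9. Tnfsf11, which encodes RANK ligand, had 11.6, 12.2 and 11.6 TPM. The ligands of B cells and tissue were at 0 or nearly so, with 1, 1 and 1 counts for Tnfsf13b (BAFF) and 0 for Tnfsf12, Tnfsf13 and Tnfsfm13, the last of which overlaps the other two on chromosome 11. A count of 0 allows up to 3 counts in a library, which for a transcript of 1 kb is 0.349, 0.269 and 0.294 TPM in libraries 1, 2 and 3. Intervals and floors given here cover counting error only, since no molecular identifiers were named.

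Receptors as a group stood above ligands. The median was 11.6 ± 0.490 TPM over receptors and 1.42 ± 0.0852 TPM over ligands (SD, n = 3 libraries), beside 0.373 TPM over all protein-coding genes. Since 9 of 18 ligands were detected, the ligand median is the midpoint between a detected and an undetected gene. By mean level it falls between Tnfsf9 at 2.64 TPM and Tnfsf4 at 0.273 TPM, with no ligand near it. The SDs of the ligand median and of the difference below cover the libraries and not this gap. On the log2(TPM + 1) scale the receptor median exceeded the ligand median by 2.65, 2.47 and 2.56, or 2.56 ± 0.09 (SD, n = 3). Among detected members alone the difference was 0.72 ± 0.15. The summed levels were closer, at 1170 ± 53.8 TPM for receptors and 1096 ± 154 TPM for ligands, since Ltb alone had 762 TPM.

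Levels of receptor and ligand were set side by side in 24 known ligand-receptor pairs. Tnfrsf19, Tnfrsf21, Tnfrsf22, Tnfrsf23, Tnfrsf26 and Tnfsfm13 were in no pair, so Tnfsf10 was not set against the decoys Tnfrsf22 and Tnfrsf23. The tallies depend on this choice of pairs. The receptor was the higher gene in every library in 15 pairs and the ligand in 6, and 3 pairs were mixed. Among pairs with at least 1 gene detected the receptor was higher in 14 and the ligand in 6. Both genes were detected in 7 pairs, the receptor alone in 8, the ligand alone in 5 and neither in 4. Ratios were taken on the log2 scale after adding 0.1 TPM to each gene.

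Where both genes were detected, the receptor was higher in 6 of 7 pairs. These pairs are not independent, since Tnfrsf1a and Tnfrsf1b were each set against both Tnf and Lta. Tnfrsf1b exceeded Tnf by 5.43 ± 0.20 and Lta by 2.83 ± 0.15 on the log2 scale. Tnfrsf1a exceeded Tnf by 4.47 ± 0.15 and Lta by 1.87 ± 0.16. Tnfrsf9 exceeded Tnfsf9 by 2.11 ± 0.37, and Tnfrsf10b exceeded Tnfsf10 by 1.92 ± 0.17. Fas and Fasl were the pair with the ligand higher: the log2 ratio of Fas to Fasl was -0.71, -0.24 and -0.85 in libraries 1, 2 and 3. The mean was -0.60 ± 0.32, and the ratio was smallest in size in library 2. The pooled level of Fasl was 1.52 times that of Fas (95% interval 1.42 to 1.63, Clopper-Pearson). This interval covers counting error only, and Fasl counts differed between the libraries by more than that, as given further on. In each of these 7 pairs the same gene was the higher in all 3 libraries.

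The 5 pairs with the ligand alone detected involve receptors best known from B cells, stroma, bone and activated lymphocytes. Ltb stood at 762 TPM against 2 counts of Ltbr, a pooled ratio of 18778 (95% interval 5198 to 155067). Cd40lg stood at 223 TPM against 5 counts of Cd40, a pooled ratio of 2309 (989 to 7112). For Tnfsf8 and Tnfrsf8 the ratio was 946 (262 to 7816), and for Tnfsf11 and Tnfrsf11a it was 220 (111 to 511). Tnfsf11 was at least 91.6-fold higher than Tnfrsf11b, which had 0 counts, taking 3 counts per library as the floor. These sizes depend on the estimate used for the low gene. On the deposited posterior mean TPM, which gives genes with few or no reads a level above 0, Ltb was 709 to 920 times Ltbr over the 3 libraries. On that scale Cd40 reached 1.20, 1.18 and 1.01 TPM and so passed the detection level, and Cd40lg was 157 to 197 times as high. Tnfsf8 was then 176 to 325 times Tnfrsf8, and Tnfsf11 was 29.8 to 39.9 times Tnfrsf11a.

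The 8 pairs with the receptor alone detected include the costimulatory receptors CD27, GITR and OX40. Cd27 was at least 904-fold higher than Cd70, Tnfrsf12a at least 72.3-fold higher than Tnfsf12, and Tnfrsf13b at least 55.7-fold higher than Tnfsf13, each against the same floor. Tnfrsf18 exceeded Tnfsf18, which had 1 count, by a pooled ratio of 15085 (95% interval 2707 to 595927). Tnfrsf4 exceeded Tnfsf4 by a ratio of 324 (196 to 580). The ratios were 661 (347 to 1446) for Tnfrsf25 over Tnfsf15, 277 (75.9 to 2305) for Tnfrsf14 over Tnfsf14, and 612 (209 to 2972) for Tnfrsf13b over Tnfsf13b. On posterior mean TPM the ratio over the libraries was 2460 to 5828 for Tnfrsf18 over Tnfsf18, 64.4 to 312 for Tnfrsf14 over Tnfsf14, 65.3 to 85.0 for Tnfrsf12a over Tnfsf12 and 31.8 to 40.2 for Tnfrsf13b over Tnfsf13b. The higher gene was the same on both scales in all 13 pairs with 1 gene detected.

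**Figure D2:**
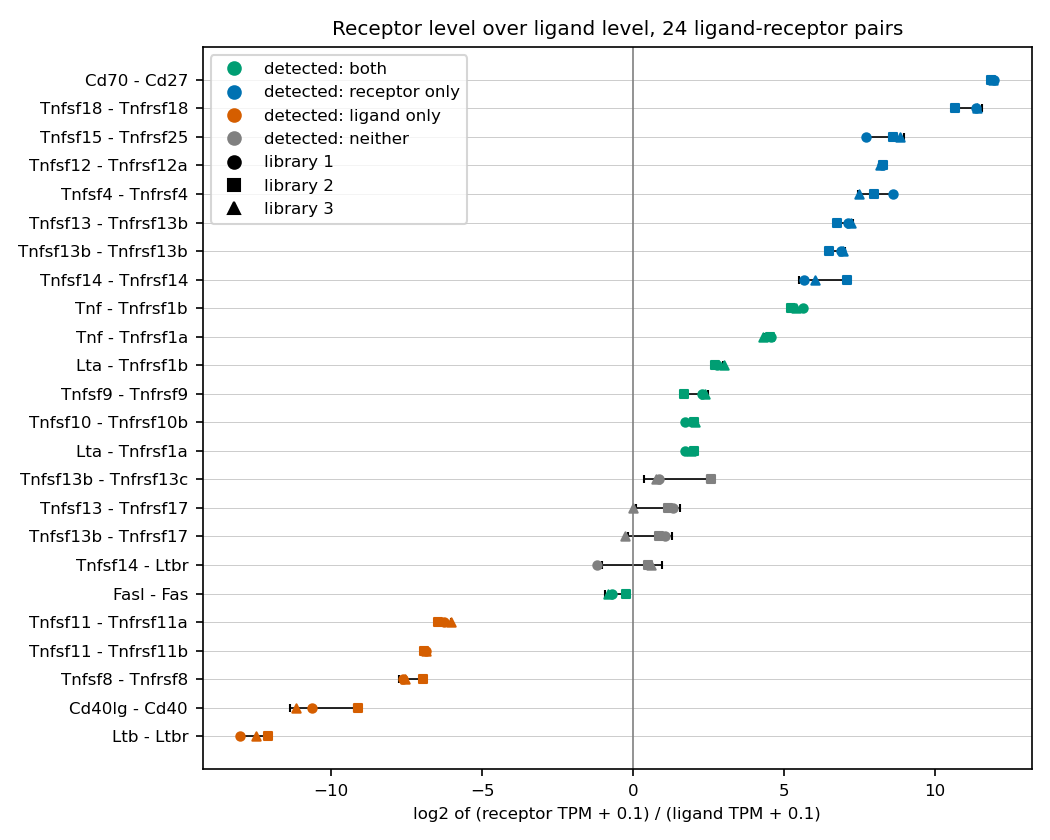
Log2 ratio of receptor to ligand, each as TPM + 0.1, for 24 ligand-receptor pairs, with 1 point per technical library, bars of 1 SD about the mean, and colours for which gene was detected. The 8 pairs with the receptor alone detected lie at the right, the 5 with the ligand alone at the left, and Fasl with Fas lies just left of 0 at -0.60 ± 0.32.

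The signalling parts downstream of these receptors were nearly all detected, against a background of 44.6% of all protein-coding genes. No background of genes at a like level was drawn. All 7 TRAF adaptors were detected, led by Traf1 at 297, Traf5 at 108, Traf4 at 80.4 and Traf2 at 60.3 TPM. Of 10 genes of death domain signalling 9 were detected, led by Casp8 at 127, Ripk1 at 89.0, Diablo at 86.3 and Cflar at 83.8 TPM. Fadd, the adaptor between Fas and caspase-8, was at 2.05 TPM, and Mlkl, which carries out necroptosis, at 0.113 TPM. All 9 genes listed for the control of ubiquitin at the receptor complex were detected. Among them were Tnfaip3, which encodes A20, at 1012 TPM, Rbck1 at 255, Birc3 at 171 and Sharpin at 150 TPM. All 7 genes listed for NF-κB kinases and their partner subunits were detected, led by Ikbkb at 266, Map3k14 at 105, Chuk at 89.9 and Map3k7 at 50.4 TPM. The 3 genes listed for the shedding of ligands and receptors, or its regulation, were detected, Adam10 at 63.7, Adam17 at 30.3 and Rhbdf2 at 13.3 TPM. Of 5 superfamily genes with other symbols, Relt was detected at 18.5 TPM, while Eda, Edar and Eda2r had means of at most 0.0333 TPM.

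Several abundant members were split between annotated transcripts. Among 16 members with more than 1 transcript and a mean of at least 10 TPM, the leading transcript was protein-coding in all 16, was the same in every library in 14, and held at least 50% of the gene's TPM in 13. The share of TPM in protein-coding transcripts had a median of 91.5% over these members and 80.4% over 7119 protein-coding genes. Ltb was carried by Ltb-203 at 52.5 ± 1.53% and Ltb-201 at 41.2 ± 1.84% (SD, n = 3). Their lines printed above start from the same base and reach acceptors 86 bases apart, and the annotated coding sequence of Ltb-201 is 918 bases against 555 for Ltb-203.

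Cd27 was divided between the spliced Cd27-201 at 57.7 ± 1.88% and Cd27-206, annotated as a retained intron, at 32.7 ± 1.38%. The Cd27-206 line above runs straight on from the shared exon, where Cd27-201 skips 1778 bases. Cd27 also overlaps Vamp1 on the other strand at 30.3 TPM, and whether the counting used strand is not given in the sources used here. Tnfrsf18 was carried by Tnfrsf18-203 at 55.5 ± 3.28%, which reads through the 71 bases that Tnfrsf18-202 removes, and Tnfrsf18-202 held 13.1, 5.79 and 3.53% in libraries 1, 2 and 3. Tnfrsf18 overlaps the antisense gene Gm16008 at 18.0 TPM.

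Fas was led by Fas-201 at 60.3 ± 1.41%, which encodes the longest of its annotated products printed above, with 981 coding bases. Fas-202, with 189 coding bases, held 17.9 ± 3.23%, and Fas-204, annotated for nonsense-mediated decay, held 13.5 ± 2.57%. These 3 transcripts leave the same exon for different acceptors, as their lines show. Tnfrsf25 was led by Tnfrsf25-202 at 39.9 ± 2.82%, next to Tnfrsf25-201 at 32.0 ± 2.03%, whose acceptor lies 761 bases nearer to the shared exon. Tnfrsf4-201 held 59.5 ± 4.52% of Tnfrsf4, and the rest went to 2 transcripts with no annotated coding sequence.

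The leading shares of the other members ranged more widely. Tnfrsf26-201 held 100%, Tnfrsf1b-201 99.8%, Tnfrsf13b-201 95.5%, Fasl-201 90.5%, Tnfrsf1a-201 87.1%, Tnfrsf22-201 83.0%, Tnfrsf10b-201 76.0% and Tnfrsf12a-201 61.2%. Tnfrsf14-202 held 45.0 ± 11.7% and Tnfrsf9-204 33.7 ± 6.05%, and in these 2 genes the leader differed between libraries. Tnfrsf9-205 was given 46.3, 0 and 48.3% in libraries 1, 2 and 3, and Tnfrsf9-201 was given 23.8, 52.2 and 0%. The split between these transcripts was therefore unstable, on 665 counts of the gene in all. Tnfrsf9 also overlaps Camta1 on the other strand, at 40.4 TPM.

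**Figure D3:**
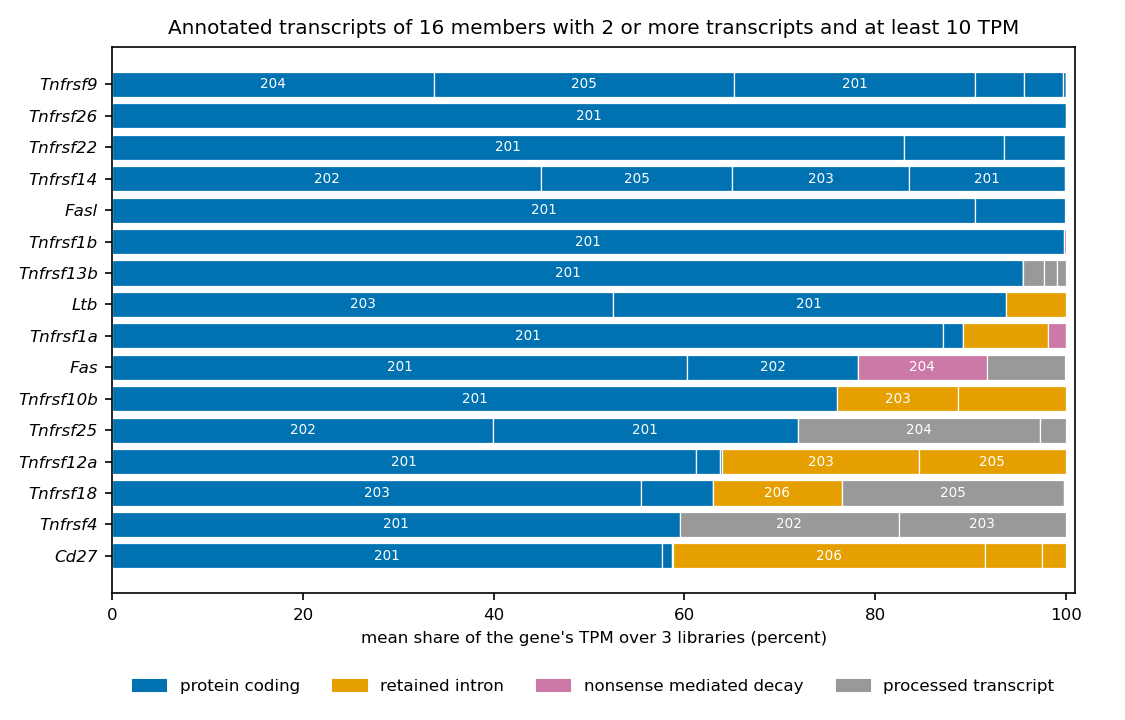
Mean share of each gene's TPM, in percent over 3 libraries, given to each annotated transcript of the 16 members with more than 1 transcript and at least 10 TPM, coloured by annotated class, with the transcript number inside segments of at least 12%. Cd27 has the smallest protein-coding share, 58.8%, and its retained intron transcript 206 holds 32.7%.

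Neighbouring members could differ widely in level. Within 200 kb of each other lay 23 members in 9 clusters, of which 3 were detected throughout, 2 not at all and 4 in part. On chromosome 17, Ltb at 762 TPM, Tnf at 3.23 TPM and Lta at 20.1 TPM are separated by 3.06 and 1.16 kb. On chromosome 6, Ltbr with 2 counts lies between Cd27 at 383 TPM and Tnfrsf1a at 73.8 TPM. On chromosome 4, Tnfrsf4 and Tnfrsf18 are 9.55 kb apart and were both abundant, while Tnfrsf8 at 0.0200 TPM lies 20.3 kb from Tnfrsf1b at 143 TPM.

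The 250 bases before the RefSeq start of Ltb, Tnf and Lta are printed because these close neighbours differed in level. They are promoter windows of GRCm38.p6, 5′ to 3′ on the strand of each gene, at chr17:35194257-35194506 (plus), chr17:35202008-35202257 (minus) and chr17:35205352-35205601 (minus), with matches to the κB consensus in capitals. The RefSeq start of Ltb lies inside the gene as M21 annotates it, so the last 68 bases of its window belong to the M21 gene, while the windows of Tnf and Lta end where their M21 genes begin.

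Ltb: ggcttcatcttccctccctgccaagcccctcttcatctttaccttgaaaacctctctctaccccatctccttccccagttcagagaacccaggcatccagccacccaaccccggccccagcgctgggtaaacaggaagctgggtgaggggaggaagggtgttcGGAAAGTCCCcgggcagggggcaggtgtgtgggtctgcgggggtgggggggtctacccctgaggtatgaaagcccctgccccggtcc
Tnf: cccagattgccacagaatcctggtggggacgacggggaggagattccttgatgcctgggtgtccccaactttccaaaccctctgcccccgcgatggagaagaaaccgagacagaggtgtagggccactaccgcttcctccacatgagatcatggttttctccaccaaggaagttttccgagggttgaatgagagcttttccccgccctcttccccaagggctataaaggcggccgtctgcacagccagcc
Lta: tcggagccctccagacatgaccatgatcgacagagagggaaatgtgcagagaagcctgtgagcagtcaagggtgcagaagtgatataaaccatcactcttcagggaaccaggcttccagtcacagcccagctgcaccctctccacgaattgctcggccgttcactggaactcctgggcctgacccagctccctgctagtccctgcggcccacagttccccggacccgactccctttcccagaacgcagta

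The Ltb window held 1 match to the κB consensus, starting 87 bases before the RefSeq start and 19 bases before the M21 start, and those of Tnf and Lta held 0. A looser form of the consensus, with its middle bases left free, matched all 3 windows, with 4 overlapping or separate matches for Ltb, 1 for Tnf and 2 for Lta, so the contrast between them depends on the form searched. The letters TATAAA, searched on both strands, occurred in the windows of Tnf and Lta and not in that of Ltb. Over all 32851 promoter windows, 7.25% held the κB consensus on either strand and 12.4% held TATAAA. Windows were found for 32 of the 42 members. The κB consensus was in 3 of 21 windows of detected members and 1 of 15 windows of the others, and these counts describe letters, not binding.

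The technical libraries differed for some members by more than counting noise. Counts were compared over the 3 libraries by a chi-square test of homogeneity against library sizes scaled with edgeR's TMM, with Benjamini-Hochberg adjustment over 13090 genes. Of the 25 members with a mean of at least 10 counts, 7 had an adjusted p below 0.05 (28.0%), against a background of 40.0% of all genes tested. The other 17 members had too few counts to enter the test. The median ratio of the highest to the lowest library was 1.17 over these 25 members and 1.20 over all genes tested. Over the 10629 protein-coding genes tested it was also 1.17, and 42.6% of those were called.

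Ltb was lowest in library 2 and highest in library 3, with a ratio of 1.31 (chi-square adjusted p = 1.16e-63). Fasl had the same order, with a ratio of 1.40 (adjusted p = 1.4e-10). Tnfrsf1a and Tnfrsf14 were highest in library 2 and lowest in library 3, with ratios of 1.23 (adjusted p = 2.29e-07) and 2.07 (adjusted p = 0.000155). Tnfrsf18, Tnfrsf1b and Tnfsf8 differed by less, with ratios of 1.11, 1.06 and 1.15 (adjusted p = 0.0116, 0.0261 and 0.0376). Library 2 was the highest or the lowest for each of the 7, as it was for 89.0% of all called genes. Without library 2, 0 members were called by the chi-square test with TMM scaling, 3 had an unadjusted p under 0.05, and scaling with DESeq2 size factors gave the same 2 counts, while 14.7% of all genes were still called. The 7 adjusted p-values of the chi-square test then ran from 0.0511 for Ltb to 0.745 for Tnfsf8. Ltb, Fasl, Tnfrsf1a and Tnfrsf14 kept an adjusted p below 0.05 in every other alternative run. On the older annotation their ratios were 1.13, 1.40, 1.16 and 1.92. The scaled Ltb count there was again lowest in library 2, but highest in library 1 and not in library 3. Tnfsf8 lost it with library totals (adjusted p = 0.134), with no filter on low counts (0.0793), on the older annotation (0.903) and without library 3 (0.134). Tnfrsf1b lost it with no filter (adjusted p = 0.127), with a mean of at least 50 counts (0.0873), on the older annotation (0.457) and without library 1 (0.166). Tnfrsf18 lost it on the older annotation (adjusted p = 0.314) and without library 1 (0.0573).

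**Figure D4:**
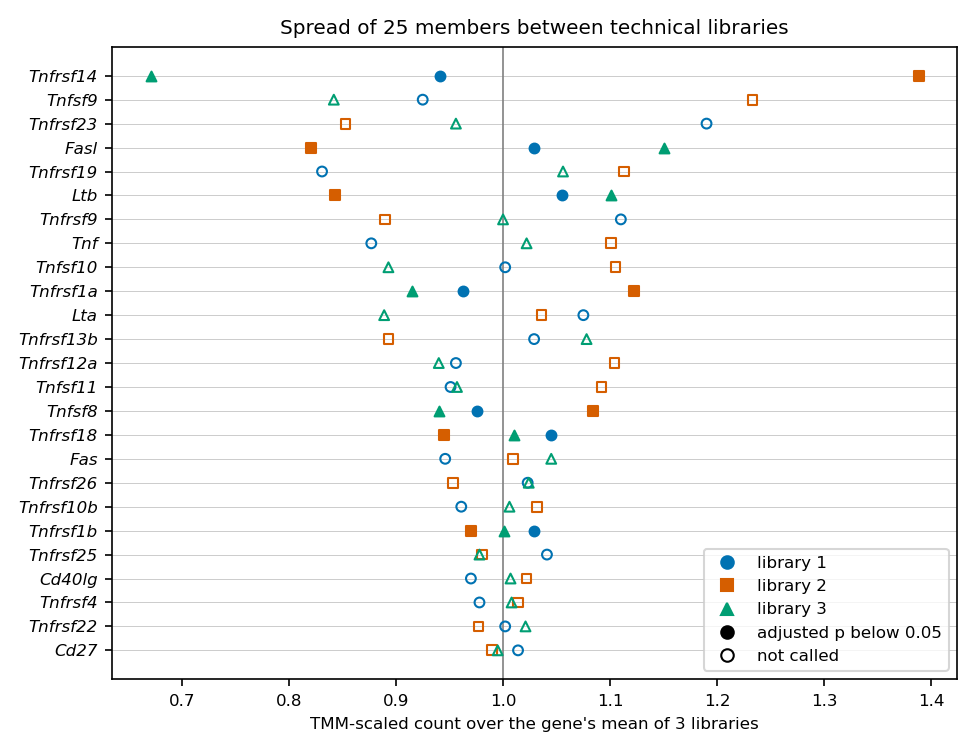
TMM-scaled count of each of the 25 tested members in the 3 technical libraries, divided by the gene's mean of the libraries, sorted by the ratio of highest to lowest, with filled symbols where the adjusted p was below 0.05. Tnfrsf14 spreads most, with a ratio of 2.07, and Cd27 least, with 1.02.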

How the data were processed

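The deposit held 3 technical polyA RNA-seq libraries of 1 mouse's naive CD4 T cells. Per the labels the assembly was mm10, and per the deposited file lists the annotation was M21, with a second gene count on M4. The authors deposited expected counts and TPM per gene, expected counts, TPM and the percent of a gene's TPM per transcript, per the file headers, and whole-number counts on M4. The aligner, the counter and the strand setting were not given in the sources used here. Entries that name no gene held 0.247, 0.200 and 0.325% of the expected counts and were left out of tests.

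Expected counts were rounded for the homogeneity test (scipy 1.17.1, with edgeR 4.0.16 TMM or DESeq2 1.42.0 size factors), which was tested on simulated data. A gene was detected at 1 TPM in every library. Pair ratios added 0.1 TPM, group medians 1 TPM. Every member is named. Detected ones have a value per library, and others their counts. Of each list the 4 highest genes were eligible for naming, and Fadd, Mlkl and Sdc1 were named after their values were seen. Members, pairs and lists were chosen with earlier results of these data known. Promoters came from RefSeq. The κB consensus replaced a looser form, with its middle bases left free, that had been searched first.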

Additional observations from a re-analysis of the deposited data

How the results depend on the processing

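Under other detection rules 21 to 25 members were detected, against 24, and leaving out any 1 library kept 24. The excess of the receptor median over the ligand median stayed above 0 under every alternative run. Against 2.56, it was 3.54 with a pseudocount of 0.1 and 2.72 with TPM rescaled over protein-coding genes. A smaller pseudocount, or TPM scaled up, by itself raises such a difference. It was 2.92 on counts scaled to library size with no length correction, and the cause of that shift was not tested. Among detected members only, which leaves out every undetected receptor and ligand, it was 0.72. The count of pairs with the receptor higher ran from 14 to 17, and that with the ligand higher from 6 to 7. Members that differed between libraries numbered 4 on the older annotation's counts, against 7. The share of all genes called was also lower there, at 18.9% against 40.0%. Leaving out 1 library gave 0 to 6 members, the lowest without library 2. An alternative chosen after seeing the data, DESeq2 size factors without library 2, also gave 0. Of all genes tested, 36.8, 14.7 and 27.6% were called when library 1, 2 or 3 was left out in turn. No paired analysis was possible because there was 1 group. Depth limits how exactly the levels of undetected members are known: 11 of the 42 had at most 3 counts in each library. It does not limit the detection calls, since 3 counts came to at most 0.456 TPM for any undetected member (Tnfrsf17 in library 1). That is below the detection level of 1 TPM.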

Other observations

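Counts on the older M4 annotation were lower than the expected counts for most members. Over 23 members with at least 100 expected counts, the M4 count was a median of 39.0% of the expected count, from 13.3% for Tnfrsf13b to 126% for Tnfrsf14. Over 9551 protein-coding genes the median was 51.4%. Tnfrsf14 was the 1 member above 100%, where 0.712% of protein-coding genes lay. Its M4 counts were 79, 135 and 71 against expected counts of 63, 111 and 53, so library 2 was the highest in both.

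Tnfrsf23, at 8.21 TPM, was below the level set for transcript shares. Its leading transcript, Tnfrsf23-204, is annotated as a retained intron and held 77.3 ± 4.30% of its TPM (SD, n = 3 libraries), and protein-coding transcripts held 14.0%. This was the lowest protein-coding share among the 24 detected members.

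The looser form of the κB consensus occurred in 45.8% of all promoter windows, in 16 of 21 windows of detected members and in 6 of 15 windows of the others. The median GC content was 52.4% over all windows, 56.0% in windows of detected members and 50.4% in those of the others, and its part in these counts was not tested.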
